A study of Rattus norvegicus with 12 samples.

Results

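The genes described here are 10 genes of the circadian clock and its direct output: Nr1d1, Nr1d2, Dbp, Tef, Per1, Per2, Per3, Cry1, Cry2 and Clock. They were taken by gene name from a table of 18344 rows of expression values in rat cells, where each name had a row. All 10 passed the filter on low values, which left 14257 genes to test. Poly-A RNA had been sequenced from 12 libraries, 3 in each of 4 groups, and every group had gone through oxygen-glucose deprivation and reperfusion (OGD/R), an in vitro model of ischaemia in which cells lose oxygen and glucose and then get them back. The CIRBP group is labelled OGD/R with CIRBP and its control OGD/R with NC. The si-CIRBP group is labelled OGD/R with si-CIRBP, a name for small interfering RNA against Cirbp, and its control OGD/R with si-NC. CIRBP is a cold-inducible RNA-binding protein, which in mouse fibroblasts binds transcripts of clock genes, Clock among them. As all groups had OGD/R, no value shows what OGD/R itself did. The labels do not say how CIRBP was given, how long OGD/R lasted or at which hour cells were harvested, and clock genes cycle over the day. The titles name the cells H9C2, a line from rat embryonic heart, whereas the cell line label says rat astrocytes. The libraries are titled biological replicates, but nothing says that they came from separate experiments, so p-values measure the spread between these libraries, which may be technical.

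The mammalian clock is a loop of transcription factors. CLOCK pairs with ARNTL (BMAL1) and binds E-boxes in the promoters of the Per, Cry, Nr1d and Dbp genes, and PER and CRY proteins return to the nucleus and block that pair. REV-ERB-alpha and REV-ERB-beta, the products of Nr1d1 and Nr1d2, repress Arntl, Npas2 and Nfil3 through ROR elements. DBP and TEF carry the rhythm to output genes through D-boxes, where NFIL3 opposes them. Heart cells and astrocytes both hold such a clock.

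Promoter windows show which of these motifs lie next to the members' starts. Windows of 250 bases before a gene's start came from RefSeq on the rat build GRCr8, where 9 of the 10 members had at least 1 and Nr1d1 and Clock had 2, 11 in all. The motifs searched on both strands were the E-box CACGTG, the E-prime-box CACGTT, the D-boxes TTATGTAA and TTACGTAA, the cAMP response element (CRE) TGACGTCA, and AGGTCA after a run of 5 bases of which at least 4 were A or T, as a ROR element. Over 33469 such windows of rat genes, 5.59% held the E-box, 4.07% the E-prime-box, 0.932% a D-box, 1.59% the CRE and 2.48% the ROR element. The windows with a match are shown 5′ to 3′ on the gene's strand, with the matched letters in capitals.
Nr1d1, first window (chr10:84231813-84232062, minus strand): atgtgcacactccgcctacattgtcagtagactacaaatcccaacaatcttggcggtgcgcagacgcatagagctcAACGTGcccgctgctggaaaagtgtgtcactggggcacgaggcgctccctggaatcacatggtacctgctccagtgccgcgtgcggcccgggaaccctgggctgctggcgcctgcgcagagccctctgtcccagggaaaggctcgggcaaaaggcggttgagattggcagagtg
Nr1d1, second window (chr10:84229455-84229704, minus strand): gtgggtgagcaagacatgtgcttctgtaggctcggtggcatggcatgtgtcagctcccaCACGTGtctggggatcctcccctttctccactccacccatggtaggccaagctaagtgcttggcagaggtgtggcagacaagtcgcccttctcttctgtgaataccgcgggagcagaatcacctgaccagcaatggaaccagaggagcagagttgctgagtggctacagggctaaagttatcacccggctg
Tef (chr7:115206577-115206826, plus strand): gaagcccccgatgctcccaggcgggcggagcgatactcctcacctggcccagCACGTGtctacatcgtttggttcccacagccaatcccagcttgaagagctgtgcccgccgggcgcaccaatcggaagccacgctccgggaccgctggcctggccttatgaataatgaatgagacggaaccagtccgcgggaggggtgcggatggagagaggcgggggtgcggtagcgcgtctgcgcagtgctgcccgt
Cry2 (chr3:98860438-98860687, minus strand): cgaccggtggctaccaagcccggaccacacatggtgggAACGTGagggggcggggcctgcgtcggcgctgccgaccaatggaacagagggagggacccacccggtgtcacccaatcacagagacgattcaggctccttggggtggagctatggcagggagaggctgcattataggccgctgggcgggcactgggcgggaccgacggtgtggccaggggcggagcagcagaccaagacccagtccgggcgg
Per2 (chr9:99496994-99497243, minus strand): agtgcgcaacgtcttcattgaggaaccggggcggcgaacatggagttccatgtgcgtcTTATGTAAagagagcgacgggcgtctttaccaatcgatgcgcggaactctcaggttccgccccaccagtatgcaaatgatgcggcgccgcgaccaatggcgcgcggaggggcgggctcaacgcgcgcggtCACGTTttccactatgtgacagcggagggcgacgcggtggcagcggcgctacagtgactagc
The first Nr1d1 window held the E-prime-box, read on the other strand as AACGTG, with its first base 174 bases before the start. The second held the E-box 191 bases before its start, Tef the E-box at 198, and Cry2 the E-prime-box at 212. Per2 held the E-prime-box at 62 and a D-box at 192. The windows of Nr1d2, Dbp, Per1, Per3 and Clock held no match by these rules. That of Nr1d2 held AGGTCA, without the run of A and T before it. A match is a description of the sequence and not a mapped binding site.

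Expression is given as FPKM, fragments scaled to the length of the transcript and to the number mapped per library, with replicates 1, 2 and 3 in that order. Summed FPKM over the table ran between 457775 and 502889 per library, and the depth relative to NC library 1 between 0.842 and 1.03. Cirbp, the targeted gene, averaged 35.8 ± 1.27 FPKM in CIRBP libraries and 19.7 ± 0.557 in NC libraries (SD, n = 3 each). In libraries labelled si-CIRBP it averaged 27.6 ± 1.04 FPKM, against 26.7 ± 2.43 in si-NC libraries, so the transcript was not lower where the label names it as a target (log2 difference 0.05, 95% CI -0.09 to 0.19). Of the libraries, si-CIRBP 1 had 370 genes (2.60% of those tested) over 2-fold from both others of its group and si-NC 1 had 586 (4.11%), whereas the other 10 had 42 to 93. The 6 smooth muscle markers summed to 3.82 to 4.51 FPKM in CIRBP, 698 to 885 in si-CIRBP, 110.2 to 1377 in si-NC and 5.93 to 8.25 in NC libraries. The 7 striated muscle markers in the table summed to 4.90 to 5.97, 24.5 to 161, 8.64 to 115 and 3.91 to 4.23 FPKM in the same groups, and the heart factor Nkx2-5 was listed at 0 in every CIRBP and NC library. The 6 astrocyte markers in the table summed to 142 to 213 FPKM over all libraries, and the 5 fibroblast markers in the table to 3772 to 4944 FPKM. These sums are carried by S100b and by Vim and S100a4, and some of the other markers differed between the arms. The astrocyte genes Slc1a2 and Aldh1l1 reached at most 0.535 and 0.287 FPKM in any library, and Aqp4 was not in the table. The 3 neuron markers in the table summed to 18.2 to 34.2 FPKM and the 2 epithelial markers to 15.4 to 18.0 FPKM. The fibroblast collagen Col1a1 averaged 1.34 ± 0.401 FPKM in CIRBP, 512 ± 186 in si-CIRBP, 366 ± 310.0 in si-NC and 1.79 ± 0.585 in NC libraries (SD, n = 3 each), and was higher in si-NC than in NC (log2 fold change 6.35, limma adjusted p = 0.00042). The astrocyte transporter Slc1a3 averaged 0.0272 ± 0.00195 FPKM in CIRBP, 3.25 ± 1.07 in si-CIRBP, 2.87 ± 2.29 in si-NC and 0.0125 ± 0.0109 in NC libraries, and was also higher in si-NC than in NC (log2 fold change 1.69, limma adjusted p = 0.0129). Dcn, another fibroblast marker, was listed at 0 in every CIRBP library and averaged 2.09 ± 1.6 FPKM in si-CIRBP and 2.07 ± 1.94 in si-NC libraries. Other markers of these lists were lower in si-NC than in NC libraries with no overlap. Gfap averaged 1.89 ± 0.426 FPKM in si-NC and 4.50 ± 0.252 in NC libraries, and Pdgfra, S100a4 and Vim were lower as well. In si-NC against NC, 2 of the 4 tested astrocyte markers were called higher and 1 lower. Of the 5 fibroblast markers 1 was called higher and 2 lower. In bulk RNA, fewer cells of a type and less RNA per cell cannot be told apart.

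Most clock genes were lower in CIRBP libraries than in NC libraries, and a smaller number were lower in si-CIRBP than in si-NC libraries. With limma on log2(FPKM + 1) and Benjamini-Hochberg adjustment over all genes tested, 8 of the 10 members fell in CIRBP against NC and none rose. In that comparison 34.2% of all tested genes were called lower, 19.7% higher and 54.0% in either direction. The members and the other gene lists were chosen with earlier results of these data known. Counts and medians beyond those of all tested genes, here and below, are therefore not independent support. The CIRBP and NC values of the same 8 members did not overlap, as for 45.0% of all tested genes in that direction. The members' median log2 change was -0.88, against -0.08 over all tested genes. In si-CIRBP against si-NC 6 members fell and none rose, where 20.5% of all tested genes were called lower, 9.08% higher and 29.6% in either direction. For 5 members no si-CIRBP value reached a si-NC value, as for 24.3% of all tested genes. The members' median there was -0.42, against -0.04 over all tested genes. Nr1d1, Nr1d2, Dbp, Tef, Cry1 and Clock fell in both comparisons, as 17.8% of all tested genes did. Per2 and Per3 were called in neither. Fold changes are on the log2(FPKM + 1) scale, on which the change of a weakly expressed gene comes out too small.

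**Figure D1:**
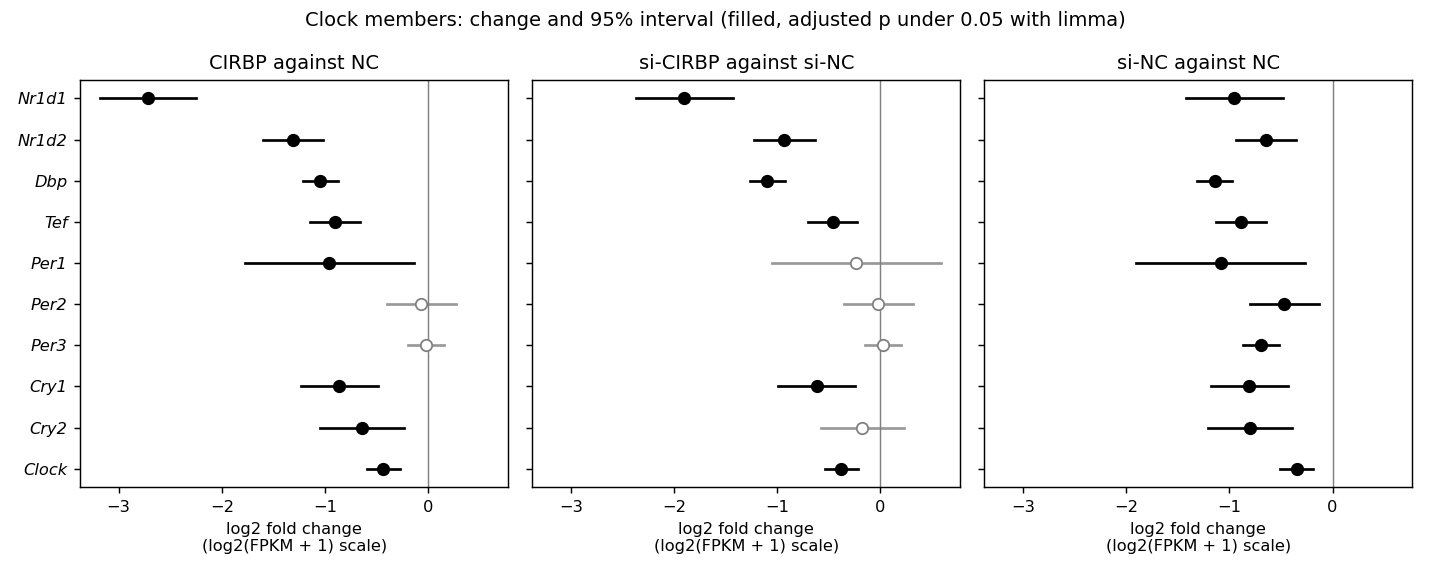
Log2 fold change of FPKM + 1 for each member (points, filled where the limma adjusted p was under 0.05, with 95% confidence intervals) in CIRBP against NC, si-CIRBP against si-NC and si-NC against NC. Nr1d1 stands lowest in CIRBP against NC at -2.72 and in si-CIRBP against si-NC at -1.90, while the intervals of Per2 and Per3 include 0 in both.

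Nr1d1 (ENSRNOG00000009329), which encodes the nuclear receptor and repressor REV-ERB-alpha, had the largest change of the members in both comparisons. It had 31.3, 32.2 and 28.1 FPKM in CIRBP libraries, against 211, 202 and 205 FPKM in NC libraries. The groups stood far apart, with the CIRBP mean at 14.8% of the NC mean. The log2 fold change was -2.72 (95% CI -3.19 to -2.25, limma adjusted p = 2.44e-06). In si-CIRBP libraries Nr1d1 had 43.6, 22.2 and 21.6 FPKM, against 119.6, 105 and 94.5 FPKM in si-NC libraries. Each si-CIRBP library lay below each si-NC library, and the first stood above the other two. The log2 fold change was -1.90 (95% CI -2.37 to -1.43, limma adjusted p = 0.000145), and the si-CIRBP mean was 27.4% of the si-NC mean.

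Nr1d2 (ENSRNOG00000046912) encodes the paralog REV-ERB-beta and fell by less. It had 20.2, 20.3 and 19.3 FPKM in CIRBP libraries, against 50.8, 51.5 and 49.9 in NC libraries. CIRBP values lay in a narrow band well below the NC band, at 39.2% of it by the means. The change on the log2 scale was -1.31 (95% CI -1.60 to -1.02, limma adjusted p = 1.4e-05). Values in si-CIRBP libraries were 13.4, 18.6 and 17.7 FPKM, against 38.5, 26.6 and 32.4 in si-NC libraries. The groups did not overlap, and here the first si-CIRBP library was the lowest of its group. On the log2 scale the change was -0.93 (limma adjusted p = 0.000602), with the si-CIRBP mean at 50.9% of the si-NC mean.

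Dbp and Tef encode transcription factors of the PAR bZIP family, which bind D-boxes in output genes. Dbp (ENSRNOG00000021027) had 55.2, 53.9 and 49.8 FPKM in CIRBP libraries, against 108, 107 and 116 in NC libraries. It reached 24.6, 21.4 and 21.8 FPKM in si-CIRBP libraries, against 54.8, 46.5 and 47.4 in si-NC libraries. Treated libraries were thus a little under 0.5 of their controls in both comparisons, at 47.9% and 45.6% by the means. The log2 fold changes were -1.05 in CIRBP against NC (SE 0.0763, limma adjusted p = 1.53e-06) and -1.10 in si-CIRBP against si-NC (limma adjusted p = 7.72e-06). The 3 si-CIRBP values lay close together, unlike those of Nr1d1.

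Tef (ENSRNOG00000019383) had 29.6, 29.5 and 27.8 FPKM in CIRBP libraries, against 53.9, 54.4 and 56.5 in NC libraries. The groups were well apart (log2 fold change -0.90, limma adjusted p = 5.15e-05). In si-CIRBP libraries Tef had 18.5, 22.0 and 22.4 FPKM, against 33.5, 24.0 and 30.8 in si-NC libraries. The groups did not overlap but came close, with 22.4 FPKM in si-CIRBP library 3 next to 24.0 in si-NC library 2. The log2 fold change was -0.46 (limma adjusted p = 0.00935), and in a fit of only those 6 libraries the call was lost (limma adjusted p = 0.0981).

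**Figure D2:**
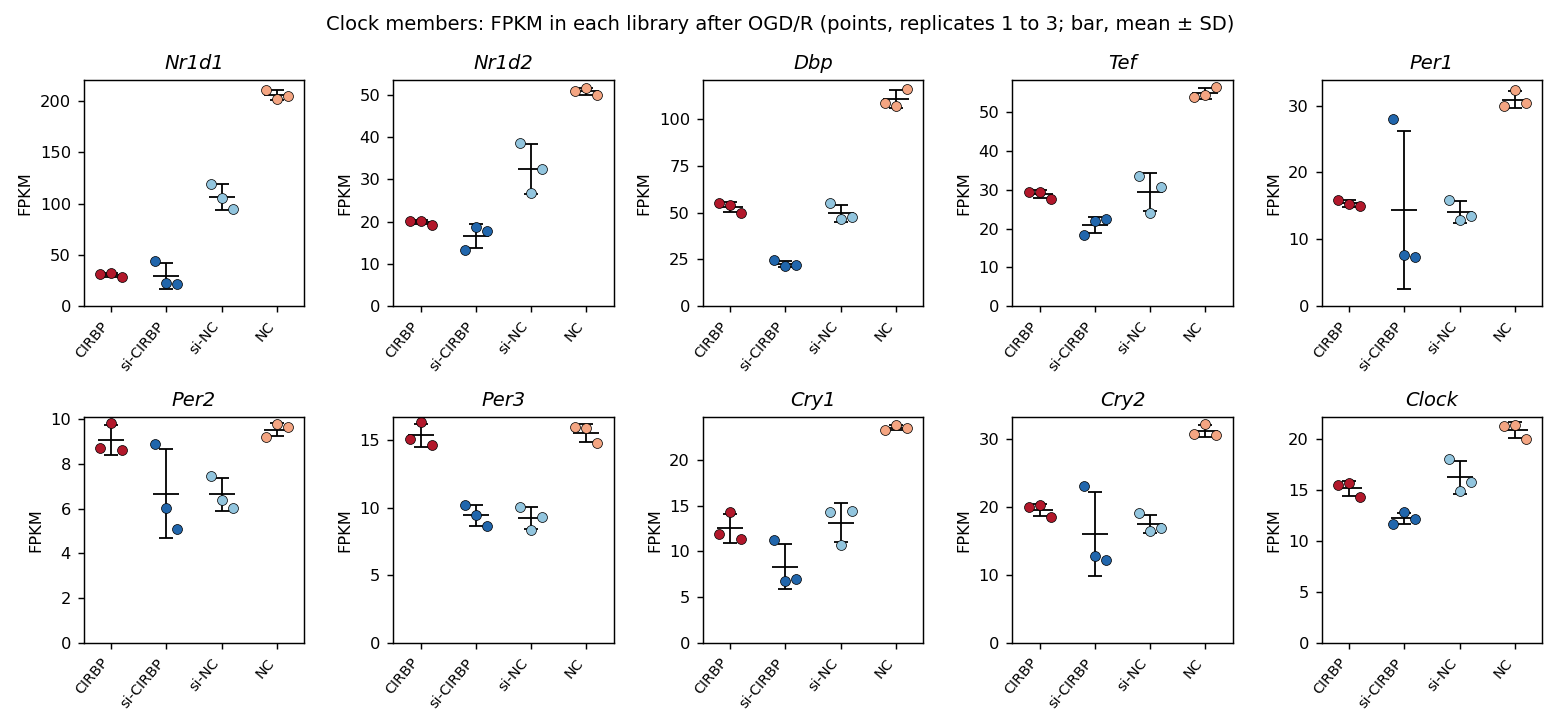
FPKM of the 10 members in each library (points, replicates 1 to 3 from left to right in each group), with group means and SD (bars), for CIRBP, si-CIRBP, si-NC and NC. The NC mean is the highest for each member, from 9.53 FPKM for Per2 to 206 FPKM for Nr1d1. The first si-CIRBP library stands above the others of its group for Per1, Cry2, Nr1d1, Cry1 and Per2, and by less for Dbp and Per3.

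The Per genes encode the PERIOD proteins, the repressors that enter the nucleus with CRY, and the 3 genes did not move alike. Per1 (ENSRNOG00000007387), which also answers quickly to stress and cAMP signals, had 15.9, 15.3 and 14.9 FPKM in CIRBP libraries, against 29.9, 32.3 and 30.4 in NC libraries. The values were about 0.5 of those in NC, with no overlap. The log2 fold change was -0.96 (95% CI -1.78 to -0.14, limma adjusted p = 0.0481), a call near the threshold. All 12 libraries share 1 estimate of the spread, and in a fit of only the CIRBP and NC libraries the limma adjusted p was 4.5e-06. In si-CIRBP libraries Per1 had 28.0, 7.65 and 7.36 FPKM, against 15.9, 12.9 and 13.5 in si-NC libraries. The first si-CIRBP library lay above all si-NC libraries and the other two below all of them. Over all libraries the log2 fold change was -0.23 (95% CI -1.05 to 0.59, limma adjusted p = 0.679). Without si-CIRBP library 1 it was -0.82 (limma adjusted p = 7.22e-05).

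Per2 (ENSRNOG00000020254) had 8.72, 9.83 and 8.60 FPKM in CIRBP libraries, against 9.19, 9.76 and 9.62 in NC libraries. The si-CIRBP libraries had 8.90, 6.03 and 5.07 FPKM, against 7.46, 6.39 and 6.04 in si-NC libraries. Groups overlapped in both comparisons. The log2 changes were -0.07 (95% CI -0.40 to 0.26, limma adjusted p = 0.744) and -0.02 (95% CI -0.35 to 0.31, limma adjusted p = 0.938), and both turned positive when libraries were rescaled to a common median.

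Per3 (ENSRNOG00000018413) had 15.1, 16.3 and 14.6 FPKM in CIRBP libraries, against 15.9, 15.9 and 14.8 in NC libraries. Its level was 10.2, 9.42 and 8.65 FPKM in si-CIRBP libraries, against 10.03, 8.38 and 9.28 in si-NC libraries. Values within each comparison overlapped, whereas all libraries of the CIRBP and NC groups lay above all of the si-CIRBP and si-NC groups. The log2 changes were -0.02 (95% CI -0.19 to 0.16, limma adjusted p = 0.878) and 0.03 (95% CI -0.15 to 0.20, limma adjusted p = 0.820).

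Cry1 and Cry2 encode the cryptochromes, which repress the CLOCK and ARNTL pair. Cry1 (ENSRNOG00000006622) had 11.9, 14.3 and 11.3 FPKM in CIRBP libraries, against 23.2, 23.8 and 23.4 in NC libraries. CIRBP values were far below those of NC (log2 fold change -0.86, limma adjusted p = 0.00134). The si-CIRBP libraries had 11.2, 6.80 and 7.04 FPKM, against 14.3, 10.6 and 14.4 in si-NC libraries. The groups overlapped through the first si-CIRBP library, which was above si-NC library 2. The log2 fold change was -0.62 (limma adjusted p = 0.0195). That call was lost under 6 of 17 alternatives, among them a fit of only those 6 libraries (limma adjusted p = 0.122). It was also lost without si-CIRBP library 2, si-CIRBP library 3, si-NC library 1 or si-NC library 3 (limma adjusted p = 0.0655, 0.0658, 0.0578 and 0.0688).

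Cry2 (ENSRNOG00000007478) had 19.9, 20.3 and 18.6 FPKM in CIRBP libraries, against 30.8, 32.1 and 30.6 in NC libraries. The groups did not overlap (log2 fold change -0.64, limma adjusted p = 0.0119). Values in si-CIRBP libraries were 23.1, 12.7 and 12.2 FPKM, against 19.0, 16.5 and 16.9 in si-NC libraries. As with Per1, the first si-CIRBP library lay above all si-NC libraries and the other two below them. The log2 change was -0.18 (95% CI -0.58 to 0.23, limma adjusted p = 0.510) with all libraries, and -0.46 (limma adjusted p = 0.000571) without si-CIRBP library 1.

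Clock (ENSRNOG00000002175), the only activator among the members of the core loop, fell by the least of those called. It had 15.4, 15.6 and 14.3 FPKM in CIRBP libraries, against 21.2, 21.3 and 19.9 in NC libraries. The level was 11.7, 12.8 and 12.1 FPKM in si-CIRBP libraries, against 18.0, 14.9 and 15.7 in si-NC libraries. Neither pair of groups overlapped. The log2 fold changes were -0.44 (limma adjusted p = 0.000436) and -0.38 (limma adjusted p = 0.00303), and the si-CIRBP call was lost in a fit of only the si-CIRBP and si-NC libraries (limma adjusted p = 0.0646).

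The first si-CIRBP library stood apart from the other two in these genes in both directions. It lay above both for 7 members and below both for 3. As FPKM ratios to the mean of the other two, Per1 was at 3.73, Nr1d1 at 1.99, Cry2 at 1.85, Cry1 at 1.62 and Per2 at 1.60. Dbp and Per3 were close to the others, at 1.14 and 1.13. Clock, Tef and Nr1d2 were lower there, at 0.938, 0.833 and 0.736. Without this library, Per1 and Cry2 were also called lower in si-CIRBP against si-NC, which made 8 members. In si-NC library 1 all 10 members were above the mean of the other two, with ratios from 1.14 to 1.30. Summed muscle markers were the lowest of their own group in the same libraries. Striated muscle markers were at 24.5 FPKM in si-CIRBP library 1 and 8.64 in si-NC library 1, and smooth muscle markers at 698 and 110.2. Single markers in si-CIRBP library 1 were mixed. By the same ratio Acta2 was at 0.773, but Tagln, Myh11, Des and Lmod1 were at 1.11, 1.26, 1.37 and 1.49. Tnnt2, Acta1 and Myog were low there, at 0.125, 0.0466 and 0.0402, unlike Myod1 (1.03) and Nkx2-5 (1.14). In si-NC library 1 all of these markers were low, with smooth muscle ratios from 0.0769 to 0.303. The part of muscle markers in these differences was not tested.

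**Figure D3:**
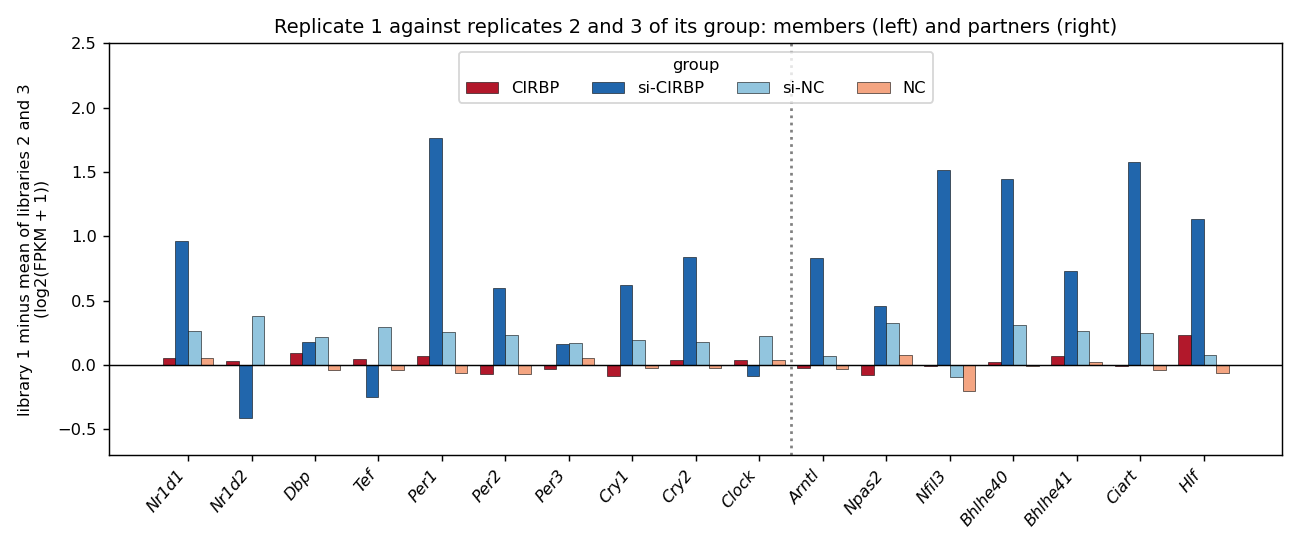
Replicate 1 minus the mean of replicates 2 and 3 on the log2(FPKM + 1) scale, for the members (left of the dotted line) and partner genes of the clock (right), in CIRBP, si-CIRBP, si-NC and NC. The si-CIRBP bars reach 1.77 for Per1 and are below 0 for Nr1d2, Tef and Clock, while the CIRBP and NC bars of the members stay within 0.0912 of 0.

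Whether the change of a member differed between the CIRBP and the si-CIRBP comparison was tested as 1 contrast, the first change minus the second. None of the 10 members was called, where 17.8% of all tested genes were called in either direction, 10.9% lower and 6.87% higher. At an unadjusted p under 0.05, 2 members were lower. For Nr1d1 the difference was -0.81 (95% CI -1.48 to -0.15, limma adjusted p = 0.0877) and for Tef -0.44 (95% CI -0.78 to -0.10, limma adjusted p = 0.0762). For Dbp it was 0.05 (95% CI -0.19 to 0.29, limma adjusted p = 0.791), the change being nearly the same size in both. For Nr1d2 the difference was -0.38 (95% CI -0.79 to 0.03, limma adjusted p = 0.193). Without si-CIRBP library 1, Nr1d1 (-0.49, limma adjusted p = 0.0118), Nr1d2 (-0.52, limma adjusted p = 0.0298) and Tef (-0.52, limma adjusted p = 0.0239) were called. Without si-NC library 1, Tef was called (-0.53, limma adjusted p = 0.0251). The count therefore depends on which library is in the fit.

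The 2 controls also differed. In si-NC against NC all 10 members fell, where 21.9% of all tested genes were called lower, 12.5% higher and 34.4% in either direction. No si-NC value of any member reached an NC value, as for 34.0% of all tested genes. The members' median log2 change was -0.80, against -0.07 over all tested genes. Dbp changed most, by -1.14 (limma adjusted p = 3.18e-05), with the si-NC mean at 44.9% of the NC mean. Per1 changed by -1.08 (limma adjusted p = 0.0441), Nr1d1 by -0.95 (limma adjusted p = 0.00749) and Tef by -0.89 (limma adjusted p = 0.000405). Per3, called in neither treatment comparison, changed by -0.70 (limma adjusted p = 0.000287) and Per2 by -0.47 (limma adjusted p = 0.0347). Clock changed least, by -0.35 (limma adjusted p = 0.00542). The calls of Per1 and Per2 were lost when the libraries were rescaled to a common median (limma adjusted p = 0.0597 and 0.0615). Per1 lost its call under 9 of 16 alternatives and Per2 under 7 of 16, most of them with a library left out. Their limma adjusted p ran up to 0.114 and 0.112. The NC and CIRBP columns carry a prefix, ad, that the others lack, so the controls may differ in how the cells were treated. Agent, batch and the make-up of the cells cannot be told apart. Smooth muscle markers moved with this contrast, at 110.2 to 1377 FPKM summed in si-NC against 5.93 to 8.25 in NC libraries, and their part in the change was not tested. This contrast shares NC with the CIRBP comparison and si-NC with the si-CIRBP comparison.

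Over the 4 groups the members followed 3 orders of level. Nr1d1, Nr1d2, Tef, Cry1 and Clock had their means in the order NC, si-NC, CIRBP and si-CIRBP, from high to low. For Dbp and Cry2 the order was NC, CIRBP, si-NC and si-CIRBP, and for the 3 Per genes NC, CIRBP, si-CIRBP and si-NC. NC was highest by the mean for all 10. Neighbours in the order overlapped for CIRBP and si-NC in Dbp, Tef, Cry1, Cry2 and Clock, for CIRBP and si-CIRBP in Per1 and Per2, for NC and CIRBP in Per2 and Per3, and for the lowest pair in Nr1d1, Cry2 and the 3 Per genes. The lowest library was a si-CIRBP library for 9 members. The highest library stood above the lowest by 9.75 times for Nr1d1, 5.41 times for Dbp and 4.39 times for Per1, down to 1.83 times for Clock.

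The partner genes of the clock, a list of 13 transcription factors and regulators of the same loops of which 9 were tested, fell in part. In CIRBP against NC 5 of the 9 fell and none rose, beside 34.2% of all tested genes called lower. In si-CIRBP against si-NC 2 fell, a share near the 20.5% of all tested genes, and in si-NC against NC 4 fell, beside 21.9%. Bhlhe40 and Bhlhe41 encode DEC1 and DEC2, repressors that compete for E-boxes. Bhlhe40 averaged 58.0 ± 4.49 FPKM in CIRBP libraries and 173 ± 2.52 in NC libraries (log2 fold change -1.56, limma adjusted p = 0.00147). Its si-CIRBP values were 177, 67.7 and 61.1 FPKM, against 152, 118 and 126 in si-NC libraries, with no call (log2 change -0.54, limma adjusted p = 0.227). Without si-CIRBP library 1 the change was -1.02 (limma adjusted p = 8.02e-05). Bhlhe41 fell in both, at log2 fold changes of -1.10 (limma adjusted p = 0.000245) and -0.63 (limma adjusted p = 0.0161). The si-CIRBP call was lost in a fit of only those 2 groups (limma adjusted p = 0.12) and without si-CIRBP library 2, si-CIRBP library 3 or si-NC library 1 (limma adjusted p = 0.055, 0.0556 and 0.0517). Ciart, which encodes the repressor CHRONO, averaged 26.6 ± 1.54 FPKM in CIRBP and 69.0 ± 1.83 in NC libraries (log2 fold change -1.35, limma adjusted p = 0.00543). In si-CIRBP libraries it had 31.4, 10.04 and 9.74 FPKM, against 35.8, 29.9 and 30.2 in si-NC libraries, and was called lower (log2 fold change -1.07, limma adjusted p = 0.0331). That call was lost under 8 of 17 alternatives, with adjusted p up to 0.166, and without si-CIRBP library 1 the change was -1.59 (limma adjusted p = 1.11e-06). Hlf, another PAR bZIP gene, averaged 1.93 ± 0.392 FPKM in CIRBP libraries and 5.59 ± 0.181 in NC libraries (log2 fold change -1.18, limma adjusted p = 0.00282). It was not called in si-CIRBP against si-NC (-0.46, limma adjusted p = 0.213), and without si-CIRBP library 1 it was lower there (-0.84, limma adjusted p = 0.000945). Arntl2, the paralog of Arntl, fell in CIRBP against NC (log2 fold change -0.59, limma adjusted p = 0.00975).

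Arntl, Npas2 and Nfil3, which REV-ERB proteins are known to repress, did not pass the test in either treatment comparison, in the libraries where Nr1d1 and Nr1d2 were lower. Arntl (ENSRNOG00000014448) had 17.3, 17.8 and 17.4 FPKM in CIRBP libraries, against 19.4, 19.2 and 20.7 in NC libraries. Its values were slightly lower in CIRBP with no overlap, at a log2 change of -0.17 (95% CI -0.56 to 0.23, limma adjusted p = 0.472). In si-CIRBP libraries it had 22.5, 12.2 and 12.2 FPKM, against 14.5, 13.4 and 14.1 in si-NC libraries. The first si-CIRBP library was above and the other two were below all si-NC libraries, so that the log2 change was 0.09 (limma adjusted p = 0.738) with it and -0.19 (limma adjusted p = 0.0137) without it. Npas2, which can stand in for Clock, averaged 7.02 ± 0.273 FPKM in CIRBP libraries and 7.06 ± 0.256 in NC libraries (log2 change -0.01, limma adjusted p = 0.981). Nfil3, the repressor at D-boxes, had 18.0, 18.6 and 17.6 FPKM in CIRBP libraries, against 12.1, 13.4 and 14.8 in NC libraries. CIRBP values were all above those of NC, but the log2 change of 0.40 had a 95% CI of -0.30 to 1.11 (limma adjusted p = 0.319). In a fit of only the CIRBP and NC libraries Arntl and Nfil3 were both called, Arntl lower (limma adjusted p = 0.00592) and Nfil3 higher (limma adjusted p = 0.00211). In si-CIRBP libraries Nfil3 had 25.8, 8.13 and 8.57 FPKM, against 9.69, 10.1 and 10.7 in si-NC libraries, again with the first library apart.

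**Figure D4:**
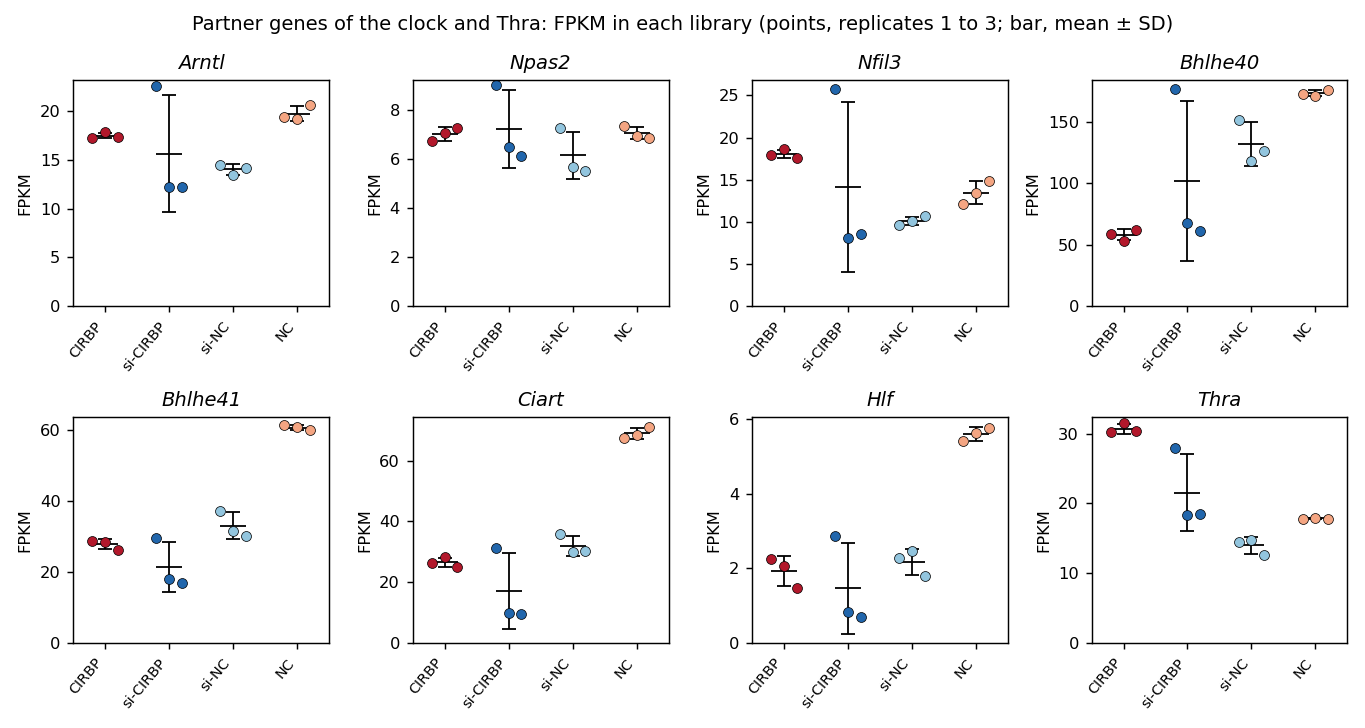
FPKM of 7 partner genes of the clock and of Thra in each library (points, replicates 1 to 3 from left to right), with group means and SD (bars), for CIRBP, si-CIRBP, si-NC and NC. Bhlhe40, Bhlhe41, Ciart and Hlf are lower in all CIRBP than in all NC libraries, Npas2 overlaps, and the first si-CIRBP library is the highest of its group in each panel.

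Thra (ENSRNOG00000009066), which encodes the thyroid hormone receptor alpha, overlaps Nr1d1 in the RefSeq annotation of the rat genome, and its value bears on that of Nr1d1. The library kit named does not mark strand and the labels give no strand setting, so reads in the shared stretch cannot be assigned to either gene. Thra had 30.2, 31.4 and 30.4 FPKM in CIRBP libraries, against 17.8, 18.0 and 17.8 in NC libraries. It was higher in CIRBP with no overlap (log2 fold change 0.75, limma adjusted p = 0.000684). Thra had 27.9, 18.3 and 18.5 FPKM in si-CIRBP libraries, against 14.5, 14.8 and 12.7 in si-NC libraries (log2 fold change 0.57, limma adjusted p = 0.00891). Thra was thus called higher in both comparisons in which Nr1d1 fell, and in a fit of only the si-CIRBP and si-NC libraries its call was lost (limma adjusted p = 0.0974). Per2, Cry1, Cry2 and Clock overlap less well known loci in that annotation, for which the same limit holds.

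Among regulators and targets beyond the loop, calls went in both directions. The 13 modifiers are kinases, ubiquitin ligases and other proteins that set the stability or activity of clock proteins. In CIRBP against NC 4 of them fell and 2 rose, shares no higher than the 34.2% and 19.7% of all tested genes. In si-CIRBP against si-NC 2 fell, below the 20.5% of all tested genes. Cipc, whose product inhibits CLOCK, averaged 19.0 ± 0.794 FPKM in CIRBP and 31.8 ± 0.761 in NC libraries (log2 fold change -0.71, limma adjusted p = 2.71e-05). In si-CIRBP libraries it averaged 15.0 ± 1.42 FPKM, against 23.6 ± 2.2 in si-NC libraries (log2 fold change -0.62, limma adjusted p = 0.000324). The kinase gene Gsk3b fell in both, at -0.41 and -0.24 (limma adjusted p = 0.000141 and 0.0116), but the si-CIRBP call was lost under 4 of 17 alternatives. Among these were both rescalings, at -0.12 (limma adjusted p = 0.155) and -0.16 (limma adjusted p = 0.0688). The other calls, named after their values were seen, were Btrc and Ddb1 lower and Usp2 and Timeless higher, all in CIRBP against NC. The kinase genes Csnk1d and Csnk1e, which act on PER proteins, were called in neither, at -0.12 and -0.04 in CIRBP against NC.

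Of 11 tested output genes of the clock, 3 fell and 1 rose in CIRBP against NC, and 2 fell in si-CIRBP against si-NC. These shares were all under those of all tested genes, which were 34.2% and 19.7% in the first comparison and 20.5% in the second. Rgs16, a regulator of G protein signalling, had 15.3, 15.0 and 14.8 FPKM in CIRBP libraries, against 48.5, 49.1 and 52.2 in NC libraries (log2 fold change -1.67, limma adjusted p = 0.00204). In si-CIRBP libraries it had 81.9, 25.0 and 28.3 FPKM, against 160.4, 104 and 129 in si-NC libraries (log2 fold change -1.71, limma adjusted p = 0.00452, and 0.0659 in a fit of only those 2 groups). Its level was lower with each treatment, although si-NC stood above NC. Tsc22d3, a glucocorticoid target, averaged 48.6 ± 1.97 FPKM in CIRBP and 21.8 ± 0.761 in NC libraries (log2 fold change 1.12, limma adjusted p = 0.000637). Ppara, a nuclear receptor of lipid metabolism, and Leo1 fell in CIRBP against NC, and Lonrf3 fell in si-CIRBP against si-NC (log2 fold change -0.55, limma adjusted p = 0.0108, and 0.111 in a fit of only those 2 groups). Leo1 was named after its values were seen.

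The 12 input genes are immediate early, cAMP-response and other signal-responsive genes, listed as inputs to the clock. In CIRBP against NC 3 rose and 4 fell, beside 19.7% and 34.2% of all tested genes. In si-CIRBP against si-NC 2 rose and 4 fell, beside 9.08% and 20.5%. Egr1, an immediate early transcription factor, had 19.5, 26.1 and 28.7 FPKM in CIRBP libraries, against 5.54, 5.35 and 5.01 in NC libraries. It had 43.7, 31.5 and 29.1 FPKM in si-CIRBP libraries, against 4.75, 8.36 and 5.29 in si-NC libraries. Its rise was large in both, at log2 fold changes of 2.02 (limma adjusted p = 1.42e-05) and 2.34 (limma adjusted p = 3.12e-05). Nr4a1 rose in both too, at 0.82 and 0.51 (limma adjusted p = 0.000617 and 0.0220), and Crem rose by 0.38 in CIRBP against NC (limma adjusted p = 0.00102). Creb1, the factor that binds the CRE, fell at log2 fold changes of -0.39 and -0.37 (limma adjusted p = 0.000346 and 0.00176), and Crtc2, its coactivator, and Nr4a2 fell in both. The si-CIRBP call of Creb1 was lost in a fit of only those 2 groups (limma adjusted p = 0.0585). Sgk1 fell in CIRBP against NC (log2 fold change -0.73, limma adjusted p = 0.000294). Its call in si-CIRBP against si-NC (-0.34, limma adjusted p = 0.0413) was lost under 9 of 17 alternatives, with adjusted p up to 0.202. Nr4a1, Nr4a2, Crem and Crtc2 were named after their values were seen.

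For 3 members the genes with the most similar pattern were taken over all 12 libraries, by the root mean square difference of centred log2(FPKM + 1) values among 11063 genes. Nearest to Nr1d1, whose own values spread by 1.23 about their mean, were Isg20 (0.272), Gdap1l1 (0.278), Tmem251 (0.316), Kcnn1 (0.335) and Tmem116 (0.346). Isg20 averaged 5.28 FPKM in CIRBP, 8.86 in si-CIRBP, 23.8 in si-NC and 47.7 in NC libraries, the order NC, si-NC, si-CIRBP and CIRBP. Nearest to Dbp, with a spread of 0.797, were Prxl2a (0.214), MAST1 (0.238), Zc3h6 (0.252), Rad9b (0.269) and Nhlrc1 (0.317). Nearest to Clock, with a spread of 0.268, were Jmjd1c (0.0386), Pptc7 (0.0483), Naa30 (0.0532), Dctn4 (0.0543) and Zmym4 (0.0551). The members were left out of the genes compared, so none of them could be among the nearest.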

How the data were processed

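RNA libraries had been made with the TruSeq V2 kit from poly-A RNA and sequenced in pairs, per the labels' protocols. The authors deposited 1 table of FPKM per gene and library. The submitters' processing notes list Bowtie2 (2.3.3.1) and Cufflinks (2.2.1) beside GRCm38 and mm10, which are mouse builds, with no role or order. The identifiers are rat Ensembl identifiers, so the build used for alignment is not settled. The only coordinates printed are those of the promoter windows, which come from RefSeq on GRCr8. Neither the strand setting nor the annotation version is stated there. Absolute depth is unknown from FPKM, and no counting interval was computed.

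Limma 3.58.1 in R 4.3.3 was run on log2(FPKM + 1), as eBayes with a mean-variance trend. Of the rows, 14257 reached 1 FPKM in 3 or more libraries and were tested. All 12 libraries entered with 1 coefficient per group and no replicate block (8 residual degrees of freedom, 2.53 prior). Two-sided p-values were adjusted over the tested genes (Benjamini-Hochberg) and called under 0.05. The fit was also run on simulated data in which each gene had the same spread in all groups. That run cannot show how the fit behaves where the groups differ in spread, as for Per1 (SD 11.8 FPKM in si-CIRBP and 0.492 in CIRBP libraries). Tables and figures were made with Python 3.11.15 (pandas 2.3.3, matplotlib 3.10.9).

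The members and lists were chosen with earlier results of these data known. Named genes were the 10 members, Arntl, Npas2, Nfil3, Cirbp, Rbm3 and Thra, the 4 called partners with the smallest adjusted p in each comparison, and the 2 called modifiers, outputs and inputs with the smallest adjusted p in each treatment comparison. Rbm3, another cold-inducible gene, changed by 0.05 in CIRBP against NC (limma adjusted p = 0.386). With the 2 rescalings it was called higher there (0.20 and 0.18, limma adjusted p = 0.00317 and 0.00711). It was called higher by 0.15 in si-CIRBP against si-NC (limma adjusted p = 0.0311), a call lost under 7 of 17 alternatives. In si-NC against NC both Rbm3 and Cirbp were called higher, and neither call was lost under any of 16 alternatives. Rbm3 averaged 273 FPKM in si-NC and 219 in NC libraries. Alternatives were the pseudocount, the filter, 2 rescalings, the groups and variances in the fit, a replicate block and each library left out. Proteins were not compared.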

Additional observations from a re-analysis of the deposited data

Results flagged for a closer look

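For 2 of the named genes the change in CIRBP against NC differed from that in si-CIRBP against si-NC by the test of the difference itself. For Cirbp the difference was 0.78 on the log2 scale (limma adjusted p = 0.000577), with a rise in CIRBP libraries over NC libraries and no lower value in libraries labelled si-CIRBP. For Arntl2 it was -0.74 (limma adjusted p = 0.0488), with 1.89 ± 0.703 FPKM in CIRBP libraries against 3.29 ± 0.325 in NC libraries, and 1.84 ± 0.368 in si-CIRBP libraries against 1.56 ± 0.206 in si-NC libraries. The Arntl2 call was lost under 16 of 21 alternatives, over which the limma adjusted p ran from 0.0113 to 0.185. Without the first si-CIRBP library, which stands apart, the difference was also called among the named genes outside the members for Tsc22d3 (1.11, limma adjusted p = 3.89e-05), Nfil3 (0.66, limma adjusted p = 0.00134), Thra (0.37, limma adjusted p = 0.00695), Bhlhe40 (-0.55, limma adjusted p = 0.0135), Ppara (-0.51, limma adjusted p = 0.0385) and Rgs16 (0.57, limma adjusted p = 0.0451).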

How the results depend on the processing

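FPKM carry no counts, so depth sets no stated limit, and with 3 libraries a group the precision rests on the spread between libraries, which for Per1 and Cry2 was widest in the si-CIRBP group. The members called lower in CIRBP against NC were 8 and stayed between 7 and 7 when each library was left out, Per1 being the call lost. In si-CIRBP against si-NC they were 6, between 5 and 8 with a library left out, and 3 (Nr1d1, Nr1d2 and Dbp) in a fit of only those groups. In si-NC against NC they were 10, and 8 to 9 with a library left out. For the difference between the arms the count of 0 became 2 with a variance factor per group, and 0 to 3 with each library left out. Without the first si-CIRBP and the first si-NC library, an alternative chosen after seeing the data, it became 5 (Nr1d1, Nr1d2, Tef, Per1 and Cry2). Fits that leave a group with 2 libraries assume that its spread is that of the others. Of the values of members and alternatives, 12 of 160 in CIRBP against NC, 8 of 170 in si-CIRBP against si-NC and 16 of 160 in si-NC against NC lost their call. The totals of the treatment comparisons include members with no call to lose, such as Per2 and Per3.

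Per1 in CIRBP against NC lost its call with a pseudocount of 0.1 (limma adjusted p = 0.0508) or 0.25 (0.0505), with no filter (0.0556), with either rescaling (0.0921 and 0.0831), without a trend (0.0543) and without each of the 6 libraries (0.0914 to 0.109). Rescaling to one median put the median of all genes in CIRBP against NC at 0.03, against -0.08 as deposited, and the members' median at -0.74, against -0.88.

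Replicate numbers are shared by the groups, and none of the 18 correlations between deviations of same-numbered libraries was over 0.1, so the numbers were not taken as pairs. They were 0.0482 to 0.0995 between CIRBP and NC, where all 6 correlations of unlike numbers were below 0, and -0.0898 to 0.0706 between the other groups. In 17 of 36 checks a library correlated best with its own number, where 12 would do so with unrelated numbers. With a replicate block the members called lower were 8, 6, 10 and 0 in the 4 contrasts, and all genes called in CIRBP against NC were 7512, against 7695 without it.

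Directions that turned were those of small, uncalled changes, with the exceptions of Arntl and Nfil3 named at the end, and the cause was not tested. Scaled to one median and by median ratios, CIRBP against NC gave 0.0686 and 0.0466 for Per2, 0.12 and 0.10 for Per3 and 0.13 and 0.10 for Npas2. For Per2 in si-CIRBP against si-NC the same scalings gave 0.0841 and 0.0458. The difference between the arms by median ratios was 0.00081 for Per2, 0.0041 for Per3 and 0.0224 for Creb1, and 0.0040 for Creb1 by one median. With libraries left out, CIRBP against NC ran from -0.0611 to 0.0130 for Per3 and from -0.0278 to 0.0206 for Npas2. The si-CIRBP change over si-NC ran from -0.82 to 0.0730 for Per1, -0.22 to 0.13 for Per2, -0.0323 to 0.0848 for Per3, -0.0177 to 0.14 for Cirbp and -0.0480 to 0.47 for Tsc22d3. In si-NC against NC it was -0.0668 to 0.28 for Egr1. For the difference it was -0.0232 to 0.11 for Dbp, -0.20 to 0.15 for Per2, -0.10 to 0.0135 for Per3, -0.40 to 0.0204 for Arntl, -0.12 to 0.69 for Nfil3, -0.55 to 0.25 for Ciart, -0.27 to 0.57 for Rgs16 and -0.0808 to 0.0406 for Creb1. Arntl in the si-CIRBP comparison ran from -0.19 to 0.23 and Nfil3 from -0.28 to 0.52, and both were called lower without the first si-CIRBP library.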
